A study of Homo sapiens with 62 samples.

Results

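The RAS genes HRAS and NRAS and 7 feedback or target genes of the RAS to ERK signalling route were followed through RNA sequencing of 5 human cell lines. The 7 are the phosphatase genes DUSP4, DUSP5 and DUSP6, the Sprouty genes SPRY2 and SPRY4, and the ETS transcription factor genes ETV4 and ETV5. The 9 members were taken by gene name from every count table, out of 58735 genes in the tables of A2058, HCT116, AGS and MCF10A and 48162 genes in those of A2780. Each name matched 1 row in each table. The rows were read for the effect of an activated HRAS in MCF10A, with and without the extra copy of 1q, and for their levels in the other lines and clones.

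RAS proteins are small GTPases that pass signals from growth factor receptors to the RAF, MEK and ERK kinases. Active ERK raises the transcription of genes that restrain the same route. Among them, DUSP4, DUSP5 and DUSP6 encode phosphatases that remove the activating phosphates from ERK, the first 2 in the nucleus and DUSP6 in the cytoplasm. Sprouty proteins act upstream, between receptor and RAF. ETV4 and ETV5 are ETS factors whose transcription responds to the route. All of these serve as transcript readouts of pathway output in cultured cells.

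The series holds 62 libraries in 16 groups from lines with a gained chromosome arm. Loss groups are clones, each derived from a single cell, in which 1 extra copy of the arm was removed with the ReDACT engineering methods. MCF10A is a breast epithelial line that is not a cancer line, and it gave 4 groups. These are MCF10A WT (2 libraries, 1q gain kept), MCF10A 1q-loss (8 libraries of clones 1 to 4), and the same 2 genotypes expressing hRASV12, an activated HRAS called hRas below (MCF10A hRas WT, 2 libraries, and MCF10A hRas 1q-loss, 8 libraries of clones 1 to 4). Clones 1 to 3 were made with the TR version of the method and clone 4 with the CO version, in both sets. A2058 (melanoma) gave 4 WT libraries, 4 of 1q-loss (2 clones), 6 of 7p-loss (3 clones) and 4 of 8q-loss (2 clones). HCT116 (colorectal cancer) gave 2 WT and 4 8q-loss libraries (2 clones), and the A2058 and HCT116 loss clones were made with CO. AGS (gastric cancer) gave 1 WT library, 2 TK+ libraries (cells with the integrated TK cassette that keep the gain) and 5 1q-loss libraries of 5 clones, 4 made with NS and clone 11 with CO. A2780 (ovarian cancer) gave 2 WT, 2 TK+ and 6 1q-loss libraries (3 clones, NS). All cells were grown for 24 hours before extraction, with no drug named. The promoter and vector that drive hRas, and whether the hRas clones descend from the 1q-loss clones of the same number, are not given in the sources used here. Libraries from the same clone share their origin, and no label says that the libraries of a group came from separate cultures, so the p-values measure the spread between these libraries, which is partly technical. In bulk RNA of this kind, fewer cells of a type and less RNA per cell cannot be told apart.

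The HRAS row cannot separate the introduced hRas from the cell's own HRAS. HRAS and NRAS are relatives, and how the counting treated reads that match both is not given in the sources used here.

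Levels are CPM (the count of a gene scaled to a common library total), adjusted by TMM scaling factors over all 62 libraries. Total counts ran from 15500424 to 29312644 in MCF10A and from 15042068 to 30984036 over all lines. Marker genes were read as a check of the line labels. The 5 basal breast markers were all above 1 CPM on average in MCF10A, the 5 melanocyte markers in A2058 and the 5 simple epithelial markers in both HCT116 and AGS. Of the 3 intestinal markers set for HCT116, 1 was above 1 CPM there, and CDX1 and VIL1 were not. They summed to 42.2 to 59.2 CPM in HCT116 and to 209 to 411 CPM in AGS, so they support the HCT116 label only in part. All 3 ovarian tract markers (PAX8, WT1 and MUC16) were under 1 CPM in A2780, so these markers do not support that label. HRAS, the gene that was introduced, was higher in every library labelled hRas than in any MCF10A library without that label.

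In MCF10A cells that keep the 1q gain, hRas came with more HRAS, DUSP4, DUSP5 and SPRY4 transcript. These 4 of the 9 members rose and none fell, where 1.62% of the 14646 genes tested were called (0.703% higher, 0.915% lower). The 4 include HRAS, the gene that was introduced, and the members were chosen with earlier results of these data known. HRAS stood at 88.7 and 90.1 CPM in the 2 MCF10A WT libraries and at 178 and 182 CPM in the 2 hRas WT libraries. The groups lay far apart, and the log2 difference was 1.01 (SE 0.073, adjusted p = 1.63e-05). NRAS, whose product differs from HRAS mainly near its end, was at 160.3 and 166 CPM without hRas and at 139 and 156 CPM with it. Both hRas libraries were the lower ones, but the log2 difference of -0.15 did not pass the test (SE 0.080, adjusted p = 0.445).

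Among the phosphatase genes, DUSP4 was at 175 and 191 CPM without hRas and at 225 and 262 CPM with it. DUSP5 went from 31.3 and 30.3 CPM to 42.5 and 44.8 CPM. Neither gene's groups overlapped, and both rose, DUSP4 by 0.41 on the log2 scale (SE 0.087, adjusted p = 0.034) and DUSP5 by 0.50 (SE 0.10, adjusted p = 0.0242). DUSP6 was at 66.3 and 46.4 CPM without hRas and at 78.5 and 83.8 CPM with it. Its groups did not overlap either, but the WT libraries were uneven, and its log2 difference of 0.52 missed the threshold (SE 0.13, adjusted p = 0.0737). DUSP6 was called by DESeq2 (adjusted p = 0.0159), which called 5 members in this comparison, and by edgeR with no filter or with a replicate block.

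Of the Sprouty genes, SPRY4 was at 50.8 and 48.75 CPM without hRas and at 78.1 and 78.4 CPM with it. The groups did not overlap, and it rose by 0.65 on the log2 scale (SE 0.085, adjusted p = 0.00171). SPRY2 was at 21.6 and 16.5 CPM without hRas and at 20.7 and 26.5 CPM with it. These groups overlapped, and the difference of 0.31 did not pass (SE 0.16, adjusted p = 0.415). The ETS factor genes did not pass, ETV4 by 0.15 (adjusted p = 0.544) and ETV5 by 0.10 (adjusted p = 0.673). With 2 libraries a group, leaving out 1 takes the spread from the other group alone. Leaving out MCF10A WT replicate 1 or replicate 2 left 0 members called, HRAS included, while the HRAS log2 fold change stayed at 0.99 or 1.03. Leaving out hRas WT replicate 1 lost DUSP5, leaving out hRas WT replicate 2 left 2 members called, HRAS and SPRY4, and 1 fit over all MCF10A libraries called 0. In the same libraries the summed mesenchymal markers (VIM, COL1A1, COL1A2, PDGFRB and ZEB1) were at 78.5 and 144 CPM without hRas and at 249.8 and 279 CPM with it, and their part in the member values was not tested.

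**Figure D1:**
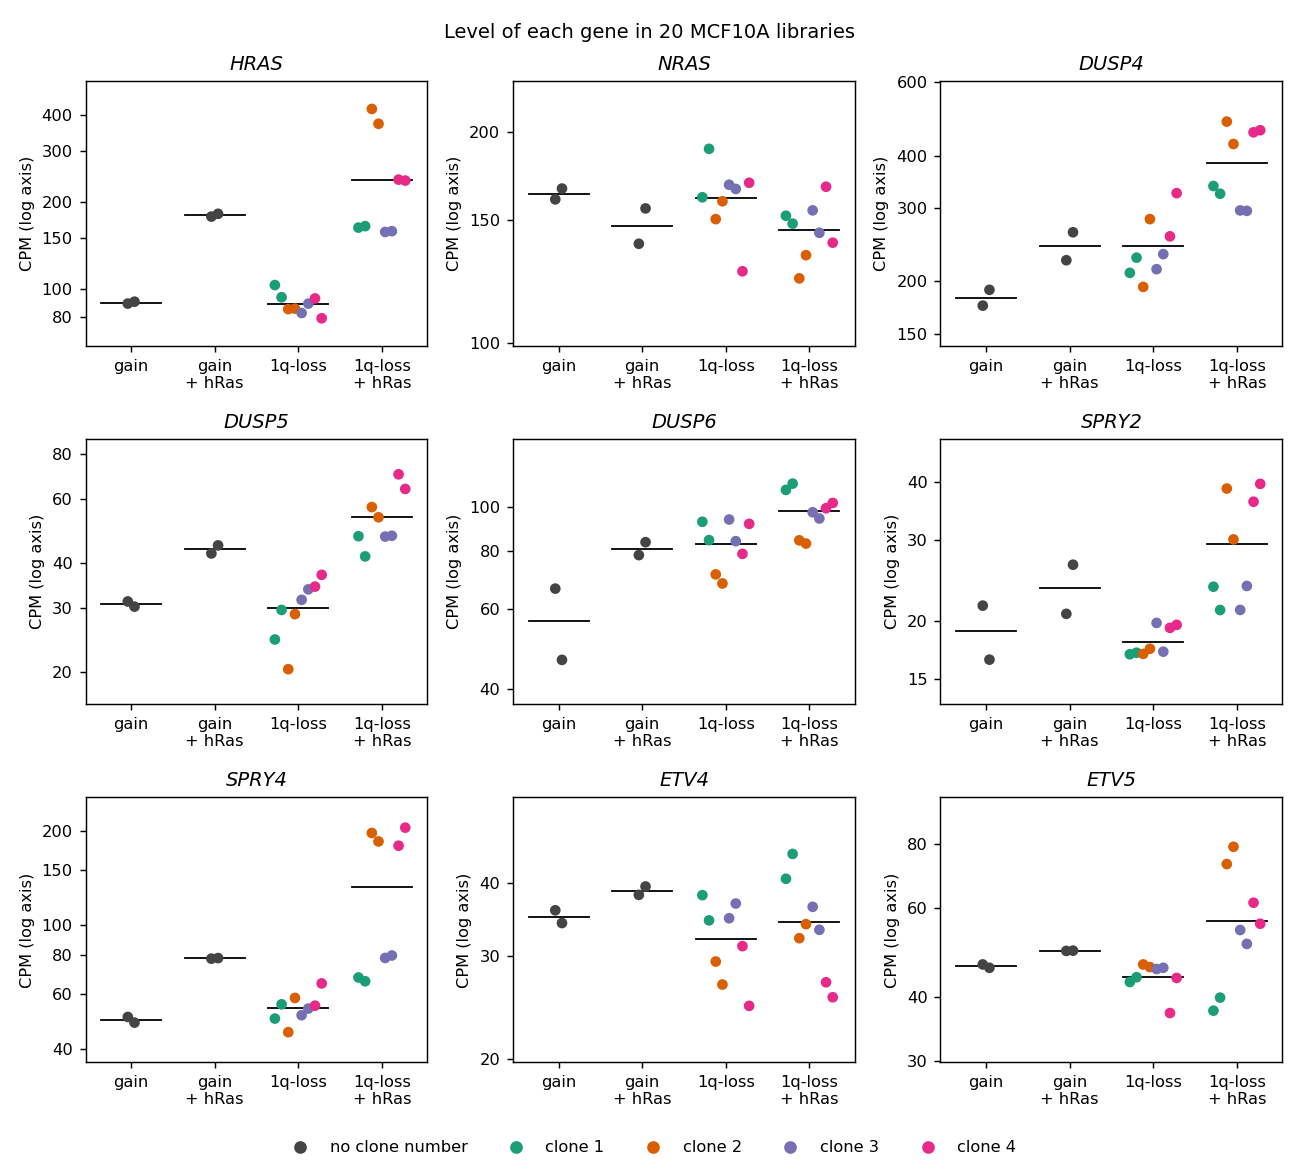
Level of each gene (CPM, log axis) in the 20 MCF10A libraries, by group; points are libraries coloured by clone number and lines are group means. HRAS and SPRY4 are highest in hRas clones 2 and 4, where SPRY4 lies between 179 and 205 CPM against 66.1 to 79.9 CPM in hRas clones 1 and 3.

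In 1q-loss cells, hRas came with more HRAS, DUSP4, DUSP5, SPRY2 and SPRY4. These 5 of 9 members rose and none fell, where 1.2% of the 14332 genes tested were called (0.795% higher, 0.405% lower). The 5 again include the introduced HRAS. HRAS in the 8 libraries without hRas had a lowest, median and highest value of 78.9, 86.9 and 103 CPM, and in the 8 hRas libraries of 157, 201 and 421 CPM. Every hRas library exceeded every library without it, with a log2 difference of 1.44 (SE 0.20, adjusted p = 0.00231). NRAS ran from 127 to 189 CPM without hRas and from 124 to 167 CPM with it. Those ranges overlapped over most of their length, and the log2 difference of -0.15 did not pass (adjusted p = 0.31).

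SPRY4 had the largest ratio of highest to lowest library among the 9 members in 1q-loss cells with hRas. Without hRas its lowest, median and highest values were 45.4, 54.6 and 65.1 CPM, and with hRas 66.1, 130 and 205 CPM. The groups just failed to meet, with a log2 difference of 1.29 (SE 0.25, adjusted p = 0.0254). SPRY2 ran from 16.95 to 19.8 CPM without hRas and from 21.1 to 39.7 CPM with it. Its groups did not overlap, and the log2 difference was 0.71 (SE 0.14, adjusted p = 0.027).

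DUSP5 had the largest hRas difference of the 3 phosphatase genes in 1q-loss cells. It ran from 20.4 to 37.1 CPM without hRas and from 41.7 to 70.3 CPM with it. Again no library crossed over, with a log2 difference of 0.84 (SE 0.13, adjusted p = 0.00626). DUSP4 ran from 194 to 325 CPM without hRas and from 295 to 482 CPM with it. Its groups overlapped through 1 library without hRas, clone 4 replicate 2 at 325 CPM, and the log2 difference was 0.67 (SE 0.13, adjusted p = 0.0272). DUSP6 ran from 68.1 to 93.9 CPM and from 83.2 to 112 CPM. These ranges overlapped, and the log2 difference of 0.24 did not pass (SE 0.081, adjusted p = 0.137).

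ETV5 ran from 37.3 to 46.4 CPM without hRas and from 37.7 to 79.0 CPM with it, and its log2 difference of 0.37 did not pass (SE 0.13, adjusted p = 0.143). ETV4 ran from 24.6 to 38.1 CPM and from 25.5 to 44.8 CPM, and differed by 0.10 (adjusted p = 0.688). Neither ETS gene therefore separated the groups. Clones of the same number varied together in both sets, and a fit with clone number as a block called 7 members higher, adding DUSP6 (log2 0.24, adjusted p = 0.00601) and ETV5 (log2 0.33, adjusted p = 0.0307). That fit called 15.1% of the 14332 genes (8.03% higher). In the fit without the block, leaving out clone 1 gave 6 members, with ETV5 added (log2 0.50, adjusted p = 0.0293), leaving out clone 2 left 1 member called (HRAS), leaving out clone 3 left HRAS and DUSP5, and leaving out clone 4 left DUSP5 alone. DUSP4, SPRY2 and SPRY4 were also lost on leaving out any 1 of 9 of the 16 libraries (adjusted p from 0.0508 to 0.0716): both of clones 1 and 3 and replicate 1 of clone 2 without hRas, and both of clones 2 and 4 with hRas. With the libraries of each clone summed, 0 members and 0 genes in all were called.

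**Figure D2:**
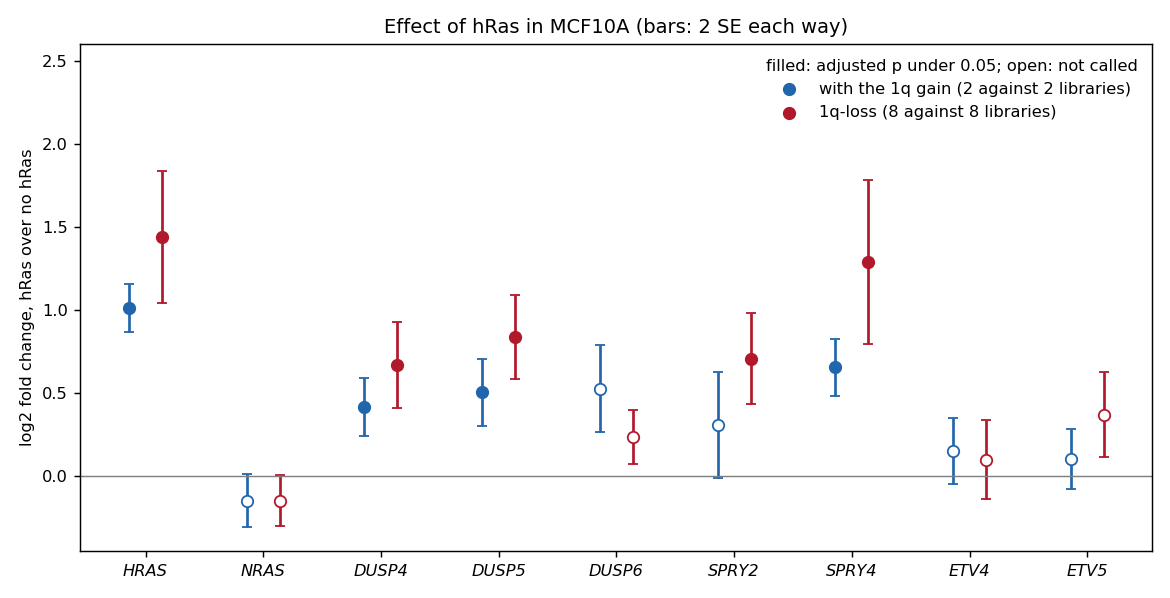
Log2 fold change of each gene with hRas against without, in cells with the 1q gain and in 1q-loss cells; bars span 2 SE each way and filled points passed an adjusted p of 0.05. HRAS, DUSP4, DUSP5 and SPRY4 are filled in both backgrounds, and SPRY2 in 1q-loss cells.

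The hRas clones did not respond alike. Set against the 1q-loss clone of the same number, HRAS was 1.67-fold higher in clone 1, 4.67-fold in clone 2, 1.85-fold in clone 3 and 2.78-fold in clone 4, against 2.01-fold in cells with the gain. SPRY4 was 1.26-fold higher in clone 1, 3.68-fold in clone 2, 1.5-fold in clone 3 and 3.19-fold in clone 4. SPRY2 was 2.00-fold higher in clone 2 and 1.95-fold in clone 4, but 1.32-fold in clone 1 and 1.22-fold in clone 3. Clones 2 and 4, with the most HRAS transcript, were thus also those with the most of both Sprouty genes.

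DUSP5 was also highest in these clones, 2.24-fold in clone 2 and 1.88-fold in clone 4 against 1.64-fold in clone 1 and 1.45-fold in clone 3. DUSP4 was too, at 1.91-fold, 1.57-fold, 1.51-fold and 1.32-fold in clones 2, 4, 1 and 3. ETV5 was 1.65-fold higher in clone 2 and 1.45-fold in clone 4, but at a ratio of 0.90 in clone 1. DUSP6 did not share this pattern: it was 1.25-fold higher in clone 1, 1.2-fold in clone 2, 1.18-fold in clone 4 and 1.08-fold in clone 3. ETV4 was higher in 2 of 4 clones, at ratios from 0.94 to 1.18. With 4 clones, the relation of HRAS level to the other genes was not tested.

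The clones also differed in cell type markers. The summed basal breast markers (KRT5, KRT14, KRT17, TP63 and CDH1) were at 715 to 743 CPM in hRas clone 2 and at 4052 to 4170 CPM in hRas clone 4, against 5386 to 7817 CPM in hRas clones 1 and 3 and 4731 to 10960 CPM in the 1q-loss libraries without hRas. The summed mesenchymal markers were at 1622 to 1692 CPM in hRas clone 2 and 929 to 994 CPM in hRas clone 4, against 101 to 386 CPM in hRas clones 1 and 3. Of those 5 mesenchymal genes, 3 were above 1 CPM on average in MCF10A, and COL1A2 and PDGFRB were not. The mitochondrial share of counts was 2.88% to 3.12% in hRas clones 2 and 4, against 1.25% to 1.64% in hRas clones 1 and 3 and 1.26% to 2.32% in the 1q-loss libraries without hRas. The part of these differences in the SPRY4, SPRY2 and DUSP5 values was not tested. No arm that carries a member moved by more than 0.05 on the log2 scale with hRas in any clone.

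**Figure D3:**
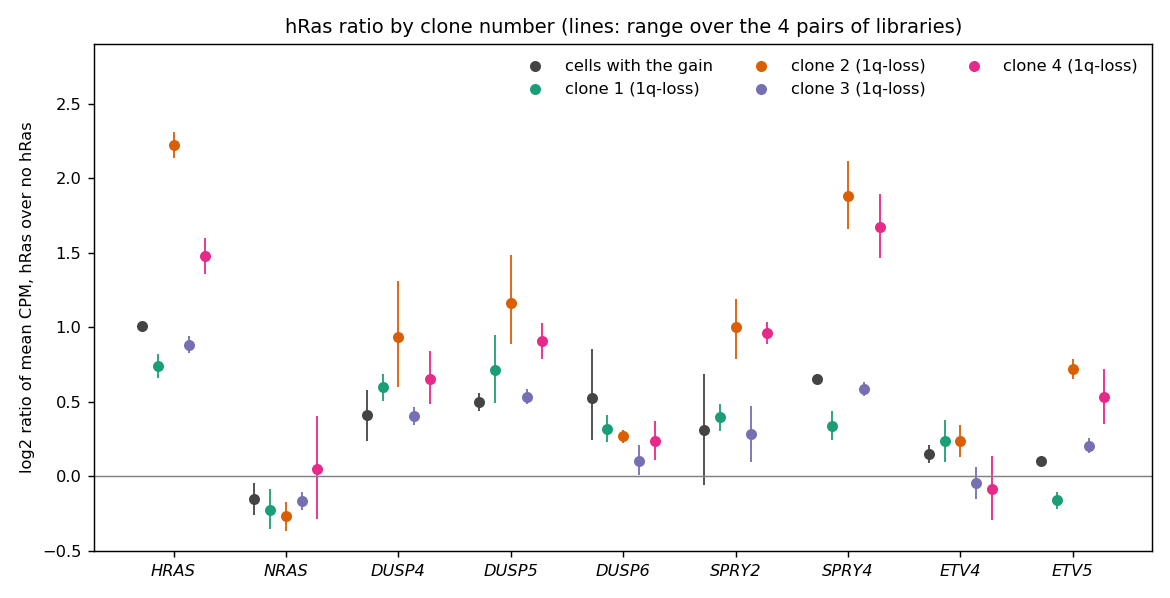
Log2 ratio of mean CPM with hRas over without, for cells with the gain and for each 1q-loss clone number; lines span the 4 pairs of libraries. For HRAS the ratios run from 0.74 in clone 1 to 2.22 in clone 2, and for SPRY4 from 0.34 in clone 1 to 1.88 in clone 2.

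Whether hRas acted differently after 1q loss was tested as an interaction over all 20 MCF10A libraries, with no clone block. No member passed by edgeR (0 of 9), where 0% of the 16492 genes tested were called. At an unadjusted p under 0.05 by edgeR stood 0 members, where 2.22% of all genes did. No member passed by DESeq2 or with a clone block either. In the edgeR fit without the block the intervals were wide. For SPRY4 the difference between the 2 hRas effects was 0.62 on the log2 scale, with an interval of 2 SE from -0.39 to 1.64. For HRAS it was 0.42 (-0.39 to 1.23), for DUSP5 0.33 (-0.20 to 0.86) and for DUSP6 -0.30 (-0.69 to 0.10). These intervals include no difference, and for SPRY4 and HRAS also differences above 1 on the log2 scale. SPRY2 passed in 1q-loss cells and not in cells with the gain, yet its interaction was 0.39 (-0.21 to 0.98).

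Other genes of the route were read from 5 lists. Among ERK-responsive genes, 2 of 13 tested rose with hRas in cells with the gain, where 0.703% of all genes tested were called higher. They were FOSL1, an AP-1 subunit, by 0.47 on the log2 scale (SE 0.077, adjusted p = 0.00813), and PHLDA1 by 0.39 (SE 0.073, adjusted p = 0.0177). In 1q-loss cells, where 0.795% of all genes tested were called higher, 1 of 13 rose. It was EPHA2, a receptor tyrosine kinase gene, by 0.30 (SE 0.066, adjusted p = 0.04). The median log2 fold change of these genes was 0.19 and 0.32, against -0.01 and 0.01 over all genes tested. None of 13 other DUSP, Sprouty and SPRED genes was called in either background, with medians of 0.00 and -0.02. The same held for 15 genes of the kinase cascade and its adaptors (0.05 and 0.00), 8 related small GTPases (0.04 and 0.08) and 8 GTPase-activating proteins (-0.06 and -0.09). With 1.62% and 1.2% of all genes called, lists of this size with no call stand near the share over all genes. The members' own medians, with the introduced HRAS among them, were 0.41 and 0.67. Single genes of the lists had large differences that did not pass, among them, chosen after their values were seen, SPRED3 (1.58, adjusted p = 0.0709) and DUSP1 (1.00, adjusted p = 0.121) in 1q-loss cells and KSR1 (-1.01, adjusted p = 0.263) in cells with the gain.

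The Sprouty genes, which both rose with hRas in 1q-loss cells while SPRY2 did not pass in cells with the gain, are shown with the 250 bases before their RefSeq start sites (GRCh38.p14, minus strand), SPRY2 at chr13:80341127-80341376, the first of its 3 listed windows, and SPRY4 at chr5:142324248-142324497. In all, 6 motifs were searched on both strands: ACCGGAAGT and its core CCGGAAGT (ETS factors), TGACGTCA (CRE), TGANTCA (AP-1), CACGTG (E-box) and GGGCGG (GC box). Capitals mark matches, which here are all GC boxes, 2 in SPRY2 and 1 in SPRY4.
SPRY2: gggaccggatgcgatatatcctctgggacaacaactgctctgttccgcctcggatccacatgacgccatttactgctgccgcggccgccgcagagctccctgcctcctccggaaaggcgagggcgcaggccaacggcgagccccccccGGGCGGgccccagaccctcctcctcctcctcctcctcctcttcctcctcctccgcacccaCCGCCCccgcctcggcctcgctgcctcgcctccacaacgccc
SPRY4: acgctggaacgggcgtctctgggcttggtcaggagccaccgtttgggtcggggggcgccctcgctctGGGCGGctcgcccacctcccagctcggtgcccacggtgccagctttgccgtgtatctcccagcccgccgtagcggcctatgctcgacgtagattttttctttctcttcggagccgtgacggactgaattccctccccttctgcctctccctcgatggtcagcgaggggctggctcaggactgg

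The GC box stood in 42.6% of 35116 windows of this length, so its presence sets neither gene apart. The longer and shorter ETS motifs stood in 0.814% and 3.42% of windows, the CRE in 1.65%, AP-1 in 6.57% and the E-box in 6.34%. In the 7 windows of the 5 members with an entry (HRAS, NRAS, DUSP6, SPRY2 and SPRY4), the ETS, CRE and AP-1 letters did not occur. HRAS had 3 GC boxes, NRAS had 2 and an E-box, and DUSP6 had no match to any of the 6 motifs. The listed SPRY2 windows other than the one shown had no match either. The longer ETS motif contains the shorter one.

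By Pearson correlation of log2 CPM over the 20 MCF10A libraries, the 5 protein-coding genes most like HRAS, out of 11675 searched, were MT1X (r = 0.954), STC1 (0.939), EFNB2 (0.938), P3H3 (0.932) and MPDU1 (0.922). MT1X encodes a metallothionein, STC1 a secreted glycoprotein hormone and EFNB2 an ephrin ligand. For DUSP6 they were CRLS1 (0.847), PRSS3 (0.818), CALR (0.802), DCTN5 (0.757) and HOXC8 (0.751). For ETV4 they were FTSJ3 (0.906), MAML1 (0.903), SF3A1 (0.90), CARM1 (0.899) and THOP1 (0.899). No gene appeared in more than 1 of these lists. The points share clones and group labels, so these values only describe the libraries.

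Loss of 1q alone changed no member past the threshold in MCF10A. None of the members lies on 1q, 7p or 8q, and NRAS is on 1p. Without hRas, 0 of 9 members were called, where 2.04% of 15666 genes were called (0.3% higher, 1.74% lower). At an unadjusted p under 0.05 by edgeR stood 2 members, where 11.8% of all genes did. DESeq2 called 1 member, DUSP6. DUSP6 was at 66.3 and 46.4 CPM in WT and ran from 68.1 to 93.9 CPM in the 8 loss libraries. All loss libraries were above both WT libraries, but the log2 difference of 0.57 missed the threshold (SE 0.15, adjusted p = 0.0813). DUSP4, likewise higher in all 8 loss libraries, differed by 0.41 (adjusted p = 0.322). HRAS differed by -0.01 (interval of 2 SE from -0.19 to 0.18).

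With hRas, 1q loss again gave 0 of 9 members called, where 0.214% of 15851 genes were called (0.0252% higher, 0.189% lower). At an unadjusted p under 0.05 by edgeR stood 2 members, where 14.3% of all genes did. DESeq2 called 0 members. The spread between hRas clones described above enters this comparison in full. HRAS had a log2 difference of 0.42 with an interval from -0.36 to 1.20, and SPRY4 of 0.77 with an interval from -0.23 to 1.76. DUSP4 was above both hRas WT libraries in all 8 loss libraries, with a difference of 0.67 (SE 0.22, adjusted p = 0.247). These comparisons use the same 4 groups as the hRas comparisons, so their values are not independent of them. The other genes of 13q, the arm of SPRY2, were shifted by -0.17 to -0.11 on the log2 scale in the 4 1q-loss clones without hRas and by -0.20 to -0.12 in the 4 with hRas, where SPRY2 itself differed by -0.15 to 0.04 and by -0.07 to 0.69. The part of that shift in the SPRY2 values was not tested.

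**Figure D4:**
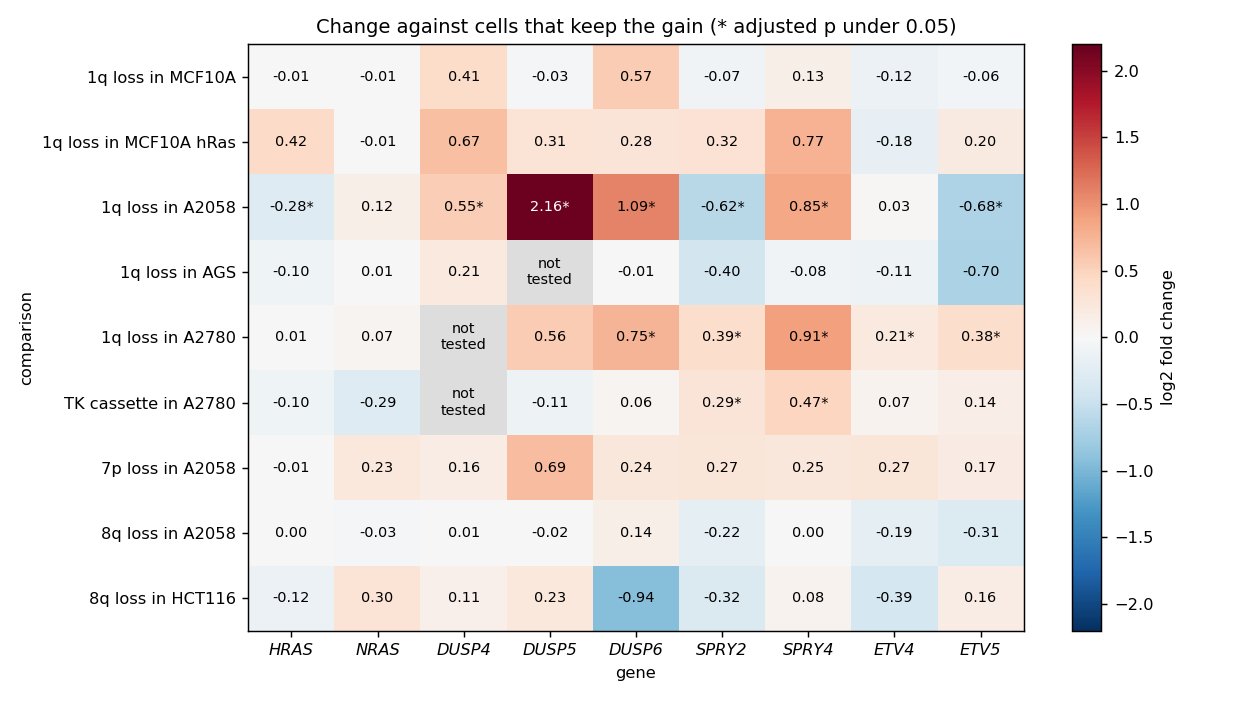
Log2 fold change of each gene (columns) in each comparison with cells of the same line that keep the gain (rows); an asterisk marks an adjusted p under 0.05 and grey cells were not tested. Asterisks stand in the rows of 1q loss in A2058 (7) and in A2780 (5) and of the TK cassette in A2780 (2).

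A2058 1q-loss clones had more DUSP5, DUSP6, SPRY4 and DUSP4 transcript and less ETV5, SPRY2 and HRAS. In this comparison 7 of 9 members were called, 4 higher and 3 lower, where 49.6% of the 15387 genes tested were called (25.3% higher, 24.3% lower). The members' count is read against that broad change. DUSP5 was at 9.497, 13.6, 9.11 and 14.96 CPM in WT replicates 1 to 4, and at 41.6 and 74.9 CPM in clone 1 and 34.0 and 58.4 CPM in clone 2. No libraries overlapped, and DUSP5 rose by 2.16 on the log2 scale (SE 0.25, adjusted p = 4.88e-05). DUSP6 ran from 92.1 to 105 CPM in WT and from 183 to 249 CPM in the clones, a rise of 1.09 (SE 0.093, adjusted p = 6.06e-06).

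SPRY4 and SPRY2, the 2 Sprouty genes, moved in opposite directions in A2058 1q-loss. SPRY4 went from 38.9 to 43.2 CPM in WT to 52.4 to 89.3 CPM in the clones, and rose by 0.85 on the log2 scale (SE 0.14, adjusted p = 0.000454). SPRY2 was at 113 to 126 CPM in WT, 87.5 and 91.7 CPM in clone 1, and 65.6 and 65.8 CPM in clone 2, and fell by 0.62 on the log2 scale (SE 0.12, adjusted p = 0.0016). In clone 2 the other genes of 13q, the arm of SPRY2, shifted by -0.38 on the log2 scale beside -0.87 for SPRY2, and the part of that shift was not tested. ETV5 fell by 0.68 (SE 0.11, adjusted p = 0.000495), from 76.6 to 100.4 CPM in WT to 50.03 to 63.8 CPM in the clones. ETV4, its close relative, did not follow, with a difference of 0.03 (adjusted p = 0.823).

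DUSP4 rose by 0.55 (SE 0.076, adjusted p = 0.000177), from 337 to 423 CPM in WT to 512 to 621 CPM in the A2058 1q-loss clones. HRAS ran from 43.0 to 54.2 CPM in WT and from 36.6 to 42.4 CPM in the clones, a small difference of -0.28 (SE 0.083, adjusted p = 0.018). That HRAS call was lost without clone 1 (log2 -0.21, adjusted p = 0.133), without replicate 2 of clone 1 alone (log2 -0.24, adjusted p = 0.055) and against WT replicates 1 and 2 only (log2 -0.17, adjusted p = 0.152), among 6 of 19 alternatives that lost it. Beside these values, the 5 melanocyte markers summed to 43.0 to 126 CPM in the 1q-loss libraries and 1578 to 2554 CPM in WT. The basal breast markers summed to 48.2 to 261 CPM against 1.065 to 2.925 CPM, and the simple epithelial markers to 157 to 205 CPM against 79.0 to 101.5 CPM. The part of these 3 lists in the member values was not tested.

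In A2780, 1q-loss clones had more SPRY4, DUSP6, SPRY2, ETV5 and ETV4. These 5 of the 8 members tested rose and none fell, against the 4 control libraries, where 11.8% of 15044 genes were called (5.95% higher, 5.88% lower). DUSP4 was at 0 to 13 counts in every A2780 library and was not tested. SPRY4 was at 81.0 and 77.7 CPM in WT and at 104 and 116 CPM in TK+. It was at 217 and 225 CPM in clone 2, 181 and 198 CPM in clone 5, and 127 and 120 CPM in clone 6. Every loss library was above every control, and SPRY4 rose by 0.91 (SE 0.20, adjusted p = 0.0147), with clone 6 closest to the TK+ libraries.

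DUSP6 followed the same order of A2780 clones, from 122 to 138 CPM in the controls to 263 and 281 CPM in clone 2, 196 and 213 CPM in clone 5 and 173 and 175 CPM in clone 6, a rise of 0.75 (SE 0.14, adjusted p = 0.00677). ETV5 ran from 71.0 to 82.1 CPM in the controls and from 95.2 to 109.9 CPM in the loss libraries, a rise of 0.38 (SE 0.061, adjusted p = 0.00261). ETV4 ran from 71.3 to 76.3 CPM and from 80.3 to 91.5 CPM, a rise of 0.21 (SE 0.053, adjusted p = 0.0258). The 2 ETS genes thus separated the groups without overlap, by small amounts. SPRY2 rose by 0.39 (SE 0.099, adjusted p = 0.0282), though its loss libraries (165 to 229.9 CPM) overlapped the TK+ libraries (151 and 171 CPM). Against the TK+ libraries alone, 0 members were called, and SPRY4 stood at 0.69 (adjusted p = 0.162) and ETV5 at 0.32 (adjusted p = 0.0601). Beside these values, the 5 mesenchymal markers, all above 1 CPM on average in A2780, summed to 1670 to 4206 CPM in the loss libraries, 1418 to 1493 CPM in WT and 911 to 1087 CPM in TK+. The 5 simple epithelial markers, of which EPCAM, CDH1 and KRT19 were under 1 CPM, summed to 7.72 to 84.5 CPM in the loss libraries, 170.3 to 182 CPM in WT and 6.14 to 8.88 CPM in TK+. The part of these differences in the 1q and TK+ values of the members was not tested.

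The A2780 TK+ libraries themselves differed from WT in SPRY4 and SPRY2. These 2 of 8 members tested rose, where 11.2% of 14888 genes were called (5.16% higher, 6.05% lower). DESeq2 called fewer members here, and a fit over all libraries of the line called none. SPRY4 rose by 0.47 (SE 0.085, adjusted p = 0.00301) and SPRY2, from 133 and 131 CPM to 171 and 151 CPM, by 0.29 (SE 0.083, adjusted p = 0.0456). NRAS, at 132 and 135 CPM in WT and 117 and 101 CPM in TK+, differed by -0.29 and just missed the threshold (SE 0.086, adjusted p = 0.0515). The TK+ libraries are among the controls of the 1q comparison. Without WT replicate 1 or replicate 2, SPRY4 alone was called here, and 2 members, DUSP6 and ETV5, were called for 1q loss. Without TK+ replicate 1 or replicate 2, NRAS was called lower here beside SPRY2 and SPRY4, and for 1q loss 4 or 3 members were called. With 1 library left in the TK+ or WT arm of the TK comparison, that library is assumed to vary like those of the other arm.

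In AGS, 0 of the 8 members tested were called for 1q loss, where 7.55% of 14988 genes were called (3.38% higher, 4.17% lower). At an unadjusted p under 0.05 by edgeR stood 1 member, where 25.8% of all genes did. DESeq2 called 0 members. ETV5 was at 74.8 CPM in WT and at 84.7 and 56.5 CPM in TK+. In the loss clones it was at 67.7, 50.4, 34.5, 28.7 and 45.57 CPM (clones 1, 4, 6, 7 and 11). Most loss clones lay below all controls, but the log2 difference of -0.70 did not pass (SE 0.26, adjusted p = 0.129). DUSP5 had 0 to 2 counts in the controls and 2 to 11 counts in the loss clones, and was removed by the filter on low counts, so the difference was not tested.

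Single AGS clones deviated in some members, with and without a shift of the member's arm. SPRY2 was at 11.6 and 10.7 CPM in clones 1 and 4, against 26.6 to 49.5 CPM in the other loss clones and 33.3 to 41.8 CPM in the controls. The other genes of 13q were shifted by -0.41 on the log2 scale in both of these clones, where SPRY2 differed by -1.68 and -1.80. DUSP4 was at 120 CPM in clone 4 against 491 to 869 CPM in the other loss clones, with the other 8p genes shifted by -0.59 in clone 4 and DUSP4 by -1.86. HRAS differed by 0.11 and -0.17 in clones 1 and 4, where 11p was shifted by 0.41 and 0.48. ETV5 differed by -1.04 in clone 6 and -1.31 in clone 7 with 3q at -0.06 and 0.03, and DUSP4 by 1.00 in clone 11 with 8p at 0.01. Each AGS clone has 1 library, so these values have no replicate.

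Loss of 7p or 8q in A2058 called no member. For 7p, 0 of 9 were called, where 0.908% of 15305 genes were called (0.105% higher, 0.804% lower). At an unadjusted p under 0.05 by edgeR stood 3 members, where 13% of all genes did. DESeq2 called 1 member, DUSP5. DUSP5 was higher than the WT mean in all 6 loss libraries, at 13.8 to 27.1 CPM, and its log2 difference was 0.69 (SE 0.21, adjusted p = 0.202). ETV4 split by clone, at 65.3 to 72.0 CPM in 7p-loss clone 1 and 110.2 to 134 CPM in clones 2 and 3. Without clone 1, DUSP5 (log2 0.83, adjusted p = 0.0305) and ETV4 (log2 0.50, adjusted p = 0.0108) were called. For 8q in A2058, 0 of 9 were called by edgeR and 0 by DESeq2, where edgeR called 2.03% of 15141 genes (0.542% higher, 1.49% lower). At an unadjusted p under 0.05 by edgeR stood 0 members, where 13% of all genes did. SPRY2 was at 84.6 and 94.7 CPM in 8q-loss clone 1, below all WT libraries, with 13q shifted by -0.40 in that clone. Without clone 2, SPRY2 was called (log2 -0.45, adjusted p = 0.0303). The 3 A2058 comparisons share the same WT libraries.

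HCT116 8q-loss clones had 0 of 9 members called, where 0.14% of 15659 genes were called (0.0255% higher, 0.115% lower). At an unadjusted p under 0.05 by edgeR stood 1 member, where 5.45% of all genes did. DESeq2 called 0 members. DUSP6 was at 30.9 and 47.0 CPM in WT and at 13.7, 15.5, 25.99 and 27.8 CPM in the loss libraries. All loss libraries were lower, clone 1 the most, but the log2 difference of -0.94 did not pass (SE 0.36, adjusted p = 0.739). SPRY4 split by clone around its WT values of 61.0 and 67.3 CPM, at 47.6 and 31.8 CPM in clone 1 and 103 and 97.4 CPM in clone 2.

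Between the parental lines, no single line had the highest level of every member. HRAS was highest in HCT116 (229 ± 59.1 CPM, SD, n = 2), then MCF10A (89.4 ± 0.98, n = 2), AGS (61.6, n = 1), A2780 (61.2 ± 2.13, n = 2) and A2058 (48.7 ± 4.78, n = 4). AGS and A2780 overlapped in that order, and the other neighbours did not. NRAS was lowest in HCT116 (48.9 ± 21.1, n = 2), and the other lines stood in the same order as for HRAS, from MCF10A (163 ± 4.13, n = 2) to A2058 (117.5 ± 13.8, n = 4). HRAS has 1854 bases in the GRCh38 tables and 1233 in those of A2780, and NRAS has 4449 in both, so ratios per kilobase depend on the gene table. Per kilobase of the gene length in the tables, HRAS was 1.31 times NRAS in MCF10A WT. In A2058 WT it was 0.99 times NRAS, with libraries from 0.808 to 1.23. In HCT116 WT it was 19.1 times NRAS in replicate 1 and 7.05 times in replicate 2, so its size depends on the library. HCT116 libraries also stood apart in scaling, with TMM factors of 0.67 to 0.88 against 0.92 to 1.14 elsewhere, and their part in these levels was not tested. With hRas the ratio was 2.81 and 3.08 in the MCF10A WT libraries. In 1q-loss cells with hRas it was 2.44 to 2.67 in clones 1 and 3, 3.43 and 4.10 in clone 4, and 6.72 and 8.17 in clone 2. A2780 was counted on another gene table, so its levels are set beside the others with that limit.

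Of the phosphatase genes, DUSP4 and DUSP5 were each nearly absent from 1 parental line. DUSP4 was at 451 CPM in AGS, 383 ± 35.76 CPM in A2058 (SD, n = 4), 286 ± 71.5 in HCT116 (n = 2) and 183 ± 11.2 in MCF10A (n = 2), but at 0 and 13 counts in the 2 A2780 libraries. DUSP5 was at 204.5 ± 15.6 CPM in HCT116 (n = 2), 30.8 ± 0.71 in MCF10A (n = 2), 11.8 ± 2.93 in A2058 (n = 4) and 3.65 ± 0.024 in A2780 (n = 2), and had 0 counts in AGS. DUSP6 was more even, from 126 ± 5.50 CPM in A2780 (n = 2) to 38.9 ± 11.4 in HCT116 (n = 2), whose libraries overlapped those of MCF10A. Each line thus combined these 3 genes differently, with A2780 carrying DUSP6 nearly alone.

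SPRY2 was highest in A2780 (132 ± 1.28 CPM, SD, n = 2) and A2058 (121 ± 5.58, n = 4) and lowest in MCF10A (19.1 ± 3.62, n = 2). SPRY4 ranged less, from 79.4 ± 2.32 CPM in A2780 (n = 2) to 36.2 CPM in AGS (n = 1). ETV4 was highest in HCT116 (340.3 ± 121 CPM, n = 2) and lowest in MCF10A (35.02 ± 1.247, n = 2). ETV5 was nearly level across the cancer lines, from 91.5 ± 11.1 CPM in A2058 (n = 4) to 73.1 ± 3.01 in A2780 (n = 2), with overlaps between A2058 and HCT116 and between AGS and A2780, and lower in MCF10A (46.1 ± 0.49, n = 2). MCF10A WT was thus the lowest line for SPRY2, ETV4 and ETV5. Per kilobase, its members ran from HRAS (48.2), NRAS (36.7) and DUSP4 (25.2) through DUSP6 (12.2), DUSP5 (11.8), ETV4 (9.71), ETV5 (7.94) and SPRY4 (7.58) to SPRY2 (6.27).

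**Figure D5:**
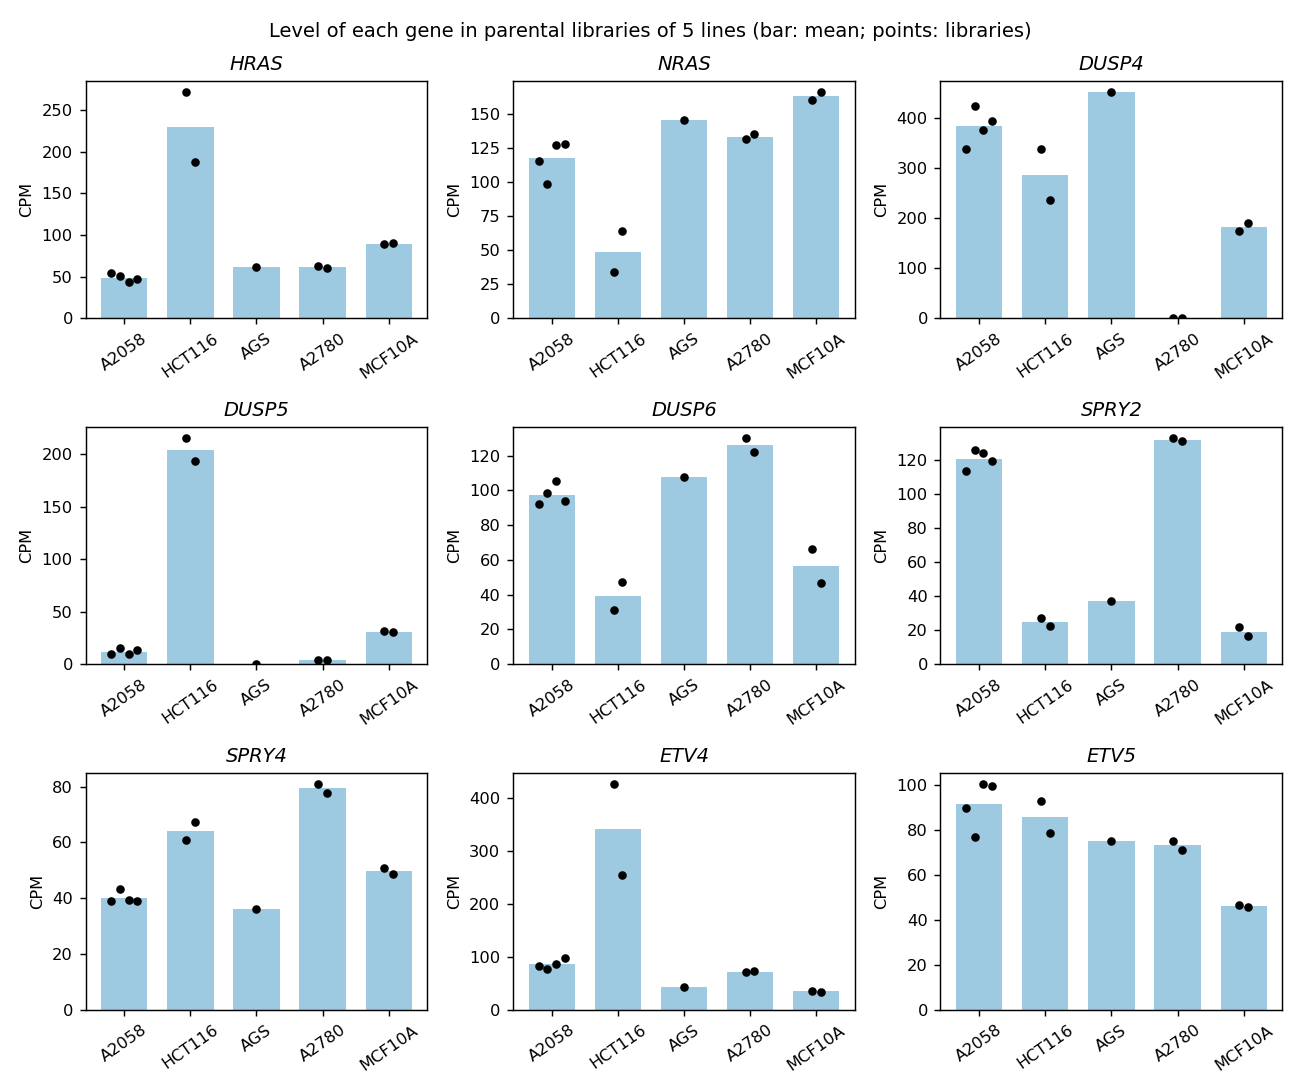
Level of each gene (CPM) in the parental libraries of 5 lines; bars are means and points are libraries. DUSP4 is near 0 in A2780 and DUSP5 in AGS, and HRAS and ETV4 are highest in HCT116, at 229 and 340.3 CPM.

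In the tables the members lie on 9 chromosomes, given here in GRCh38 with their gene identifiers. HRAS (ENSG00000174775) is at 532242 to 537287 of chromosome 11, NRAS (ENSG00000213281) at 114704469 to 114716894 of chromosome 1 and SPRY4 (ENSG00000187678) at 142310427 to 142326455 of chromosome 5. DUSP4 (ENSG00000120875) is at 29333064 to 29350668 of chromosome 8, DUSP5 (ENSG00000138166) at 110497838 to 110511544 of chromosome 10 and DUSP6 (ENSG00000139318) at 89347232 to 89353271 of chromosome 12. SPRY2 (ENSG00000136158) is at 80335976 to 80340951 of chromosome 13, ETV4 (ENSG00000175832) at 43527844 to 43579620 of chromosome 17 and ETV5 (ENSG00000244405) at 186046308 to 186110318 of chromosome 3. ETV4 overlaps DHX8 on the other strand, which had up to 3761 counts, and ETV5 overlaps DGKG on its own strand and ETV5-AS1 on the other, with at most 438 counts. DUSP6 and SPRY4 overlap genes on the other strand of at most 30 and 81 counts in the GRCh38 tables. The strand setting of the counting is not given in the sources used here, so reads of overlapping genes cannot be told apart.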

How the data were processed

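The authors deposited 1 table per library of raw counts per gene, whole numbers with no normalisation. Reads were handled with HISAT2 2.0.5 and featureCounts 1.5.0-p3 on hg38, per the submitters' processing notes. Tables of A2780 carry GRCh37 coordinates (261 of 48162 genes share start and end with GENCODE 29), the others GRCh38 (58724 of 58735).

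Libraries were grouped by the labels. Each comparison was fitted over all its genes with edgeR 4.0.16 in R 4.3.3 (filterByExpr with a minimum count of 10 and total of 15, TMM, quasi-likelihood F-test). P-values were two-sided and Benjamini-Hochberg adjusted over all genes tested, with calls made below 0.05 after adjustment. SE is the log2 fold change over the square root of F. Levels are CPM with 1 TMM scaling over the 45342 shared gene IDs. The test was checked on simulated data. In the 2 against 2 hRas comparison (14593 genes), 81% of genes changed by 1 log2 unit were recovered, and 2.69% of the calls were false. In the 8 against 8 one (14523 genes) the shares were 100% and 5.66%, the second above the 5% aimed at. The simulated libraries were drawn independently, with a spread set by hand and no clone effect, and only well counted genes were changed. The check therefore cannot show how the test performs on libraries that share a clone. Clone numbers paired the hRas and other 1q-loss clones: same-numbered clones deviated from their group means with correlations of 0.291 to 0.673 (4 pairs), unlike numbers with -0.388 to 0.0586. The link comes from the numbers in the labels and this check. Named genes were the 9 members, called genes of the lists and the 5 most correlated genes. The members and lists were chosen with earlier results of these data known. No 2 libraries of a group agreed within sampling noise.

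DESeq2 1.42.0, other scalings and filters, replicate and clone blocks, summed clones, other control sets and leaving out each library or clone were alternatives. Marker genes were summed per list, chosen as defining each cell type. The intestinal list reached at most 411 CPM in any library, in AGS, and the immune list at most 10.4 CPM, in MCF10A. A comparison of member coding sequences is not reported here.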

Additional observations from a re-analysis of the deposited data

Results flagged for a closer look

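The 9 members were each checked for a library far from the others in the 9 groups of 4 to 8 libraries. Of these 81 checks 4 found one, and chance alone gives about 1 in 20. HRAS was at 63.8 CPM in AGS 1q-loss clone 1, against 52.5 to 55.6 CPM in the other 4 clones. SPRY4 was at 43.2 CPM in A2058 WT replicate 4, against 38.9 to 39.2 CPM. ETV4 was at 372 CPM in replicate 1 of HCT116 8q-loss clone 1, against 225 to 242 CPM. ETV5 was at 37.3 CPM in replicate 1 of MCF10A 1q-loss clone 4, against 42.9 to 46.4 CPM.

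For 2 members, every 1q-loss library lay on one side of its control mean in one line and on the opposite side in another. The share of all genes that meet this rule was not counted, so the 2 are not read as a result about the members. Loss of 1q called 49.6% of the genes tested in A2058 and 11.8% in A2780. SPRY2 was higher in A2780 (log2 0.39) and lower in A2058 (-0.62). ETV5 was higher in A2780 (0.38) and lower in A2058 (-0.68). In AGS its log2 difference was -0.70, which did not pass (adjusted p = 0.129), and its loss and control libraries overlapped. The difference between lines was not tested.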

How the results depend on the processing

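Over 247 fits, 105 member values had 2065 alternatives. In 1954 the call and its direction stayed, 91 calls were lost, 20 were gained and 0 called values changed sign, while 129 values that were never called did. Counts of members called, by edgeR unless named, depended on few libraries. For hRas with the gain (4), leaving out 1 library gave 0 to 3, and fitting all libraries of the line gave 0. For hRas in 1q-loss (5), leaving out 1 library gave 2 to 5 members, without clones 1 to 4 in turn it was 6, 1, 2 and 1, and with summed clones 0. The interaction, 1q loss in MCF10A with hRas, 1q loss in AGS and 8q loss in HCT116 stayed at 0 members in every alternative. For 1q loss in MCF10A (0), DESeq2, no filter and leaving out clone 2 each gave 1 member, DUSP6. For 7p in A2058 (0), DESeq2 gave 1 and leaving out clone 1 gave 2. For 8q in A2058 (0), leaving out clone 2 gave 1. For 1q loss in A2780 (5), leaving out 1 library gave 2 to 6 members, leaving out clone 6 gave 3, summed clones 2 and TK+ controls alone 0. For the TK cassette (2), DESeq2 gave 1, all libraries of the line 0 and leaving out 1 library 1 to 3. The cause was not tested. For 1q loss in A2058 (7), every alternative gave 6 or 7 members.

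Replicate numbers did not pair the libraries in every comparison, and correlations of the differences between replicates ran from -0.178 to 0.487. The highest were 0.487 for 8q loss and 0.422 for 7p loss in A2058, where others were below 0. In A2780 the mitochondrial share of counts was 9.14% to 10.7% in replicate 1 libraries and 6.9% to 8.04% in replicate 2 libraries. Whether replicate numbers mark a shared batch was not tested. With the replicate block, 5 members were called for each hRas comparison, 6 for 1q loss in A2058, 5 in A2780 and 3 for the TK cassette. Over all genes, the block called 711 against 237 for hRas with the gain and 74 against 172 in 1q-loss, and the clone block 2160. DESeq2 called 306 and 806.

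Comparisons with WT or hRas WT cells in MCF10A, and with WT cells in HCT116, had 2 control libraries. DUSP4 in A2780 and DUSP5 in AGS had 13 counts or fewer and were removed by the filter on low counts, so differences in these members were not tested.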
